A study of Mus musculus with 35 samples.

Results

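The genes described here encode the nuclear part of respiratory chain complexes I to IV, measured as RNA in mouse leukemia cells that carried a NUP98 fusion gene which doxycycline switches off. Members were the protein-coding genes whose symbol starts with Nduf, Uqcr, Cox4, Cox5, Cox6, Cox7 or Cox8, or with Sdh and then a, b, c or d, and in addition Cyc1. Of 24462 features in the expression table, 81 genes had such a symbol, and 76 of these had 3 or more of the 33 libraries at 10 or higher. They comprised 7 core subunits of complex I, 28 other complex I subunits, 8 complex I assembly factors, 4 complex II subunits, 4 complex II assembly factors, 9 complex III subunits and 16 complex IV subunits (Ndufa4 was placed with complex IV). The members were not chosen by any measured difference, apart from this minimum value.

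The respiratory chain sits in the inner mitochondrial membrane. Complex I (NADH dehydrogenase) and complex II (succinate dehydrogenase, which is also an enzyme of the TCA cycle) pass electrons to coenzyme Q, complex III passes them on to cytochrome c, and complex IV (cytochrome c oxidase) reduces oxygen. Several complex IV subunits come in pairs of isoforms, of which one is made in most tissues and the other mainly in heart and skeletal muscle (Cox6a2, Cox7a1), lung (Cox4i2) or testis (Cox6b2). Myeloid leukemia cells are known to draw on mitochondrial respiration, and assembly factors (the Ndufaf and Sdhaf genes here) are proteins that help to build a complex without being part of the finished one.

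All libraries came from C57BL/6 mice that had received transplanted cells, and RNA was taken from bone marrow cells sorted for GFP and CD45.2. The 3 fusions, NUP98-DDX10, NUP98-JARID1A and NUP98-NSD1, were each measured in untreated mice (4 libraries, of which 1 is titled day 3 and 3 are titled day 5, treated as 1 group), after 3 days of doxycycline at 4 mg/ml (3 libraries) and after 5 days (3 libraries). A further 3 libraries are titled as controls and labelled untreated; their genotype label lists several NUP98 fusions, so what these cells carried is not known from the labels. Which mice or leukemias the libraries of a group came from is not numbered, so each p-value reflects the scatter among libraries, part of which may be technical; age is not given in the labels used here.

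Values are normalized counts (each library's reads over its own size factor), and each library held 12043487 to 28903870 reads in genes. Each fusion transcript was high in its own untreated group and low after doxycycline: NUP98-DDX10 ranged from 9003 to 14121 untreated and from 3.19 to 8.01 in treated libraries, NUP98-JARID1A from 3042 to 3489 and from 60.2 to 100, and NUP98-NSD1 from 52599 to 58498 and from 40.3 to 58.1. In the controls NUP98-DDX10 and NUP98-NSD1 were at 0, and NUP98-JARID1A ranged from 2.52 to 72. The controls also differed in cell markers. The summed level of 6 B cell genes was 16148 to 85388 in the controls and 999 to 2183 in all fusion libraries, and that of Ptprc, the CD45 gene of blood cells, was 24245 to 31017 and 4949 to 13234.

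The 76 members had a median level of 1169 normalized counts, against 387 for all features kept by the same filter, and a median transcript length of 786 bases against 2990. Summed over members, they took 0.511 to 0.627% of the reads in the controls, 0.738 to 0.848% in untreated NUP98-DDX10, 0.537 to 0.686% in untreated NUP98-JARID1A and 0.858 to 0.897% in untreated NUP98-NSD1. The 5 genes that missed the filter were Cox7b2, Cox8c and Ndufs5 with 0 reads, Cox8b with 2 reads and Ndufa4l2 with 4 reads. For Cox7b2 and Cox8c, a count of 0 in 538141159 reads allows a level of up to 0.00557 RPM (reads per 1e+06 reads; 3 reads, counting error only). Ndufs5 encodes a complex I subunit, and 99.0% of its transcript has a near-identical copy elsewhere in the genome, so its count of 0 sets no limit on its level; the pseudogene entry Ndufs5-ps, which is no member, held 562 reads. Such copies also cover 100% of Ndufb4, 94.1% of Ndufs3, 89.1% of Cox7c, 88.3% of Uqcrb, 87.9% of Cox5b and 87.2% of Uqcr11, so the values of these members are uncertain.

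After 5 days of doxycycline most members did not pass the test against the untreated cells. On the deposited scale the calls were small rises of subunits, most of which were lost under 2 other scalings, falls of 3 assembly factors and 1 large fall, of the muscle isoform Cox6a2. In the mean of the 3 fusions, tested with limma on log2(value + 1) across all 12687 features and adjusted by Benjamini-Hochberg, 16 of 76 members (21.1%) passed an adjusted p of 0.05, against 46.0% of all features. Of these, 12 were higher (22.6% of all features were) and 4 lower (23.4% were), but after scaling to total reads the split was 1 higher and 14 lower and after quantile normalization 3 higher and 6 lower. Scaling to total reads moved the median change of all features by -0.13 on the log2 scale. The median change of the members was 0.07, with 49 of 76 above 0, against 0.00 for all features, and it ranged from -0.06 to 0.08 over all alternatives. By group, 3 of 7 complex I core subunits, 5 of 28 other complex I subunits, 1 of 4 complex II subunits, 2 of 9 complex III subunits and 1 of 16 complex IV subunits rose, and under scaling to total reads only 1 complex III subunit still did. The groups that held falls were the complex I assembly factors (2 of 8), the complex II assembly factors (1 of 4) and complex IV (1 of 16).

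**Figure D1:**
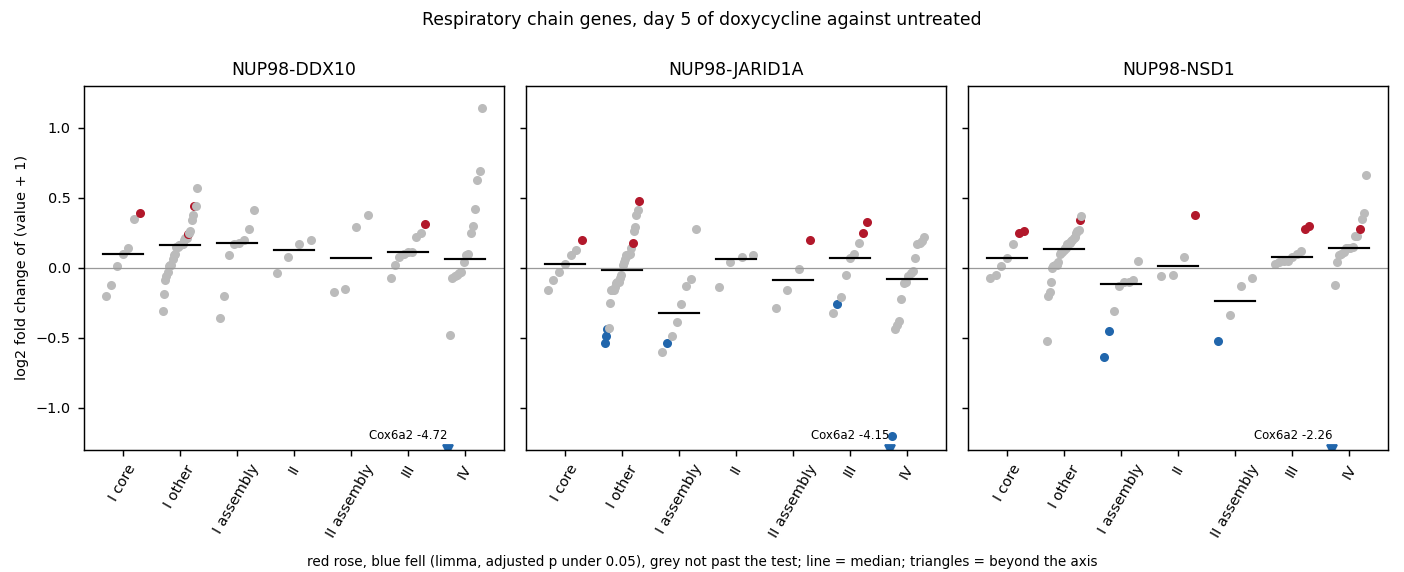
Change of each member at day 5 of doxycycline against untreated, in log2 units on the vertical axis, by complex and role on the horizontal axis, with 1 panel per fusion. Each point is a gene and each line a median, with points red where it rose, blue where it fell and grey where it did not pass the test. Cox6a2 lies beyond the axis at -4.72, -4.15 and -2.26, and most other members lie close to 0; rises shown here are on the deposited scale, and most were lost after scaling to total reads.

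Over the same 5 days the marker genes of the cells moved far more than the members. All 6 myeloid progenitor genes fell in the mean of the fusions (median log2 change -1.84), all 8 monocyte and macrophage genes rose (1.79) and 7 of 8 neutrophil genes rose (1.17). These rises did not hold for every gene in each fusion. In NUP98-DDX10 cells Lyz2 had 51885 to 72411 untreated and 111975 to 124651 at day 5, but Ccr2 had 5858 to 7210 and 4330 to 5045. Csf1r, Cd68, C1qb, Ltf, Ngp, Camp, S100a8, S100a9 and Csf3r overlapped between untreated and day 5 libraries there. Of the progenitor genes, Elane overlapped there too. In bulk RNA, fewer cells of a type and less RNA per cell cannot be told apart, and the part of this shift in the members' changes was not tested.

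Uqcrfs1, the Rieske iron-sulfur subunit of complex III, was the one member whose rise at day 5 passed the test in each of the 3 fusions. In NUP98-DDX10 cells its values were 2645, 2768, 2868 and 2912 untreated, and 3456, 3664 and 3311 at day 5. The untreated NUP98-JARID1A values were 1802, 1780, 1683 and 1544, and those at day 5 were 2460, 2097 and 1883. Untreated NUP98-NSD1 cells had 2361, 2414, 2359 and 2309, and 3174, 2825 and 2754 at day 5. In each fusion every treated library was above every untreated one. The log2 changes were 0.31 ± 0.09 (SE), 0.33 ± 0.09 and 0.30 ± 0.09, with limma adjusted p of 0.0167, 0.00399 and 0.0122, and their mean was 0.31 ± 0.05 (adjusted p = 1.29e-05). The mean kept its call under all 12 alternatives and without any of the 33 libraries, while the call in NUP98-DDX10 alone was lost without the untreated library titled day 3 (adjusted p = 0.0553) or without day 5 replicate 2 (0.0864), and that in NUP98-NSD1 without day 5 replicate 1 (0.0845). After scaling to total reads the call was lost in all 3 single fusions (0.0984, 0.774 and 0.393), with changes of 0.33, 0.05 and 0.16.

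Cox4i1, the common isoform of complex IV subunit 4, rose by 0.24 ± 0.05 in the mean at day 5 (limma adjusted p = 0.000343). In NUP98-NSD1 cells it went from 7596, 8436, 7609 and 7879 to 9398, 9924 and 9451, with no overlap. The values overlapped in NUP98-JARID1A cells, with 6706, 6166, 6291 and 5370 untreated and 7485, 7110 and 6411 at day 5. Cox4i1 had the highest mean per kilobase over all libraries of the complex IV isoform pairs described below, at 9570 normalized counts per kilobase. After scaling to total reads its mean change was 0.11 and after quantile normalization 0.09, and neither passed the test.

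Among the complex I genes, Ndufa8, an accessory subunit of the intermembrane side, rose by 0.31 ± 0.07 in the mean (adjusted p = 0.000884). Its values in NUP98-DDX10 cells were 770, 923, 1020 and 1079 untreated and 1358, 1234 and 1230 at day 5, without overlap. The core subunits Ndufv2 (0.15, adjusted p = 0.00724) and Ndufv1 (0.18, 0.0305), which form the NADH-oxidizing part of the enzyme, rose by limma. The accessory subunits Ndufb9 (0.16, 0.00629) and Ndufc2 (0.22, 0.0124) rose as well, by limma. In complex II the iron-sulfur subunit Sdhb rose by 0.22 (0.0152), and in complex III the core protein Uqcrc1 by 0.21 (0.00433). The call of Ndufv1 was lost in 4 of 33 fits that each left out 1 library. None of these 7 members passed the test as a rise after scaling to total reads, where Ndufa8 had 0.18 (adjusted p = 0.0715).

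Of the 12 assembly factors 3 fell and none rose, a share near the 23.4% of all features that were lower. Ndufaf3, an early complex I assembly factor, fell by 0.31 ± 0.08 at day 5, as the mean over fusions (limma adjusted p = 0.00277), and this call held under all 12 alternatives and without any of the 33 libraries. Its NUP98-NSD1 values were 696, 808, 745 and 829 untreated, 608, 606 and 622 at day 3, and 572, 571 and 542 at day 5. In NUP98-DDX10 cells the values were 691, 644, 631 and 678, then 622, 511 and 511, then 524, 540 and 481. Both series showed no overlap between untreated and treated libraries. The NUP98-JARID1A libraries overlapped, with 598, 459, 469 and 398 untreated and 539, 405 and 374 at day 5. Sdhaf4, which helps to mature the flavoprotein subunit of complex II, fell by 0.23 ± 0.09 in the mean (adjusted p = 0.0335). Its NUP98-NSD1 values went from 1032, 930, 853 and 971 to 673, 654 and 647 at day 5, without overlap. In NUP98-DDX10 cells no fall of Sdhaf4 passed the test at day 5, and the F-test between the fusions did not call it. Ndufaf1, which acts on an intermediate of the complex I membrane arm, fell by 0.23 ± 0.09 (adjusted p = 0.0475). The call of Sdhaf4 was lost in 10 and that of Ndufaf1 in 23 of 33 fits that each left out 1 library.

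**Figure D2:**
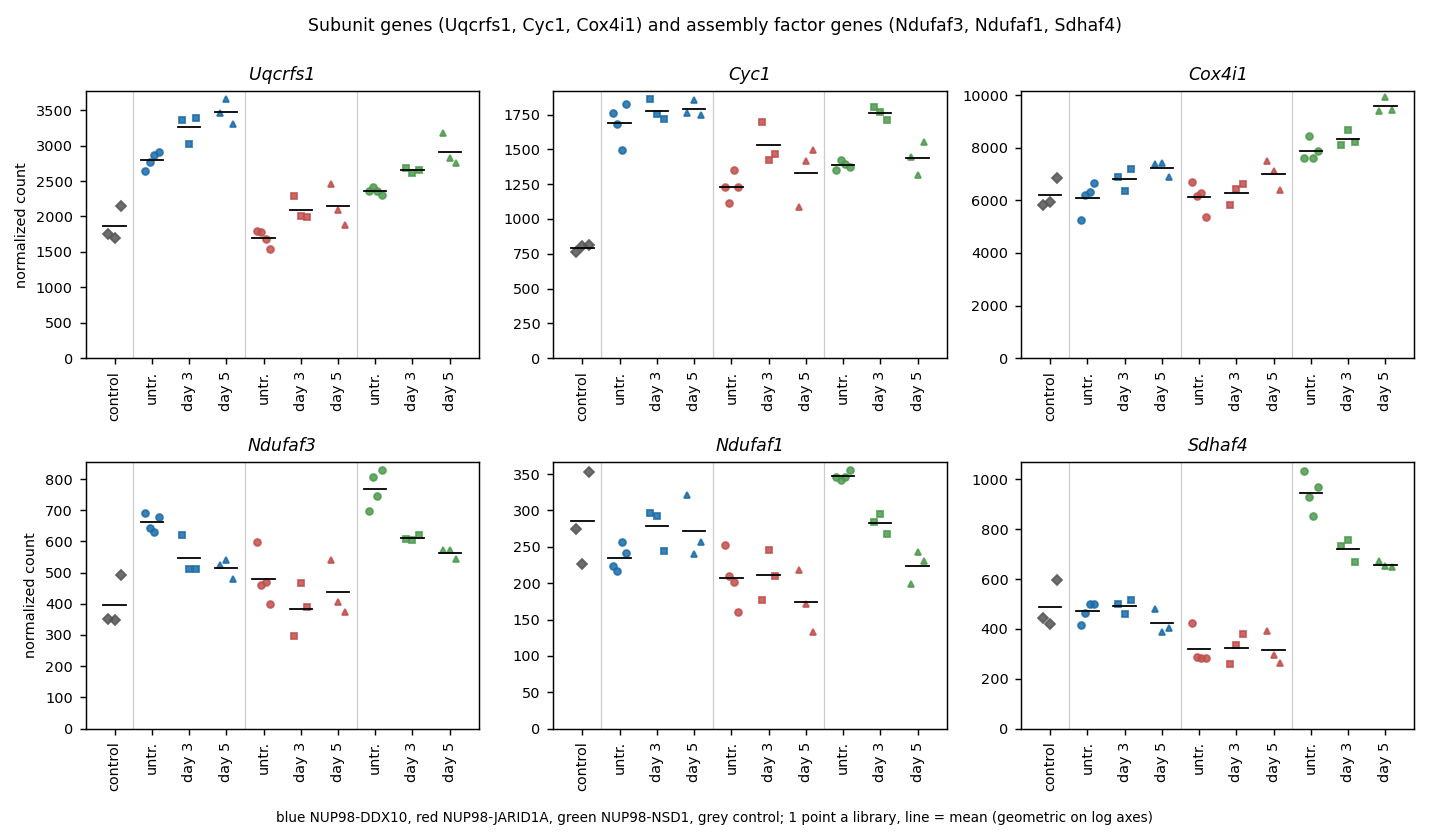
Normalized counts per library, on the vertical axis, of Uqcrfs1, Cyc1, Cox4i1, Ndufaf3, Ndufaf1 and Sdhaf4 in the 10 groups on the horizontal axis. Points are libraries and lines are group means. The day 5 values of Uqcrfs1 lie above the untreated ones in all 3 fusions, from 1883 to 3664 over the treated libraries.

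Promoter windows of 300 bases (250 before and 50 after each start, from RefSeq, GRCm38.p6) were found for 62 of 76 members, in 64 windows. Of the motifs searched on both strands, the NRF1 letters GCGCATGCG were in 10.9% of member windows and 1.8% of all 32851 windows (3.5% of the 12893 windows of genes kept), the YY1 letters AAGATGGCG in 9.4% and 1.4% (3.0%), and the ETS letters CCGGAAG in 25.0% and 8.9% (17.3%). The E-box CACGTG was in 4.7% and 7.2% (9.8%), and the CRE letters TGACGTCA in 6.2% and 1.8% (2.9%). Uqcrfs1 and Ndufaf3 are shown because their day 5 changes were opposite and kept their calls under all alternatives; both windows are on the minus strand, at chr13:30545267-30545566 and chr9:108567387-108567686, and cover the flank and first bases of the transcript. Capitals mark the CRE letters, which are in the Uqcrfs1 window, while none of the 5 motifs is in that of Ndufaf3. The Uqcrfs1 window held 31 CpG and the Ndufaf3 window 29, against a median of 20 over member windows and 20 over windows of genes kept. A match is a description of the letters only.
Uqcrfs1: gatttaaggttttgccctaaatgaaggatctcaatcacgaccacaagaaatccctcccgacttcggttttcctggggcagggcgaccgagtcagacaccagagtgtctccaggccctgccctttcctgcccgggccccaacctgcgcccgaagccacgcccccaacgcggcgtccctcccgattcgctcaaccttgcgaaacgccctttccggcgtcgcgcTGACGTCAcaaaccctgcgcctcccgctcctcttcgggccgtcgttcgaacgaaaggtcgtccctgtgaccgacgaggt
Ndufaf3: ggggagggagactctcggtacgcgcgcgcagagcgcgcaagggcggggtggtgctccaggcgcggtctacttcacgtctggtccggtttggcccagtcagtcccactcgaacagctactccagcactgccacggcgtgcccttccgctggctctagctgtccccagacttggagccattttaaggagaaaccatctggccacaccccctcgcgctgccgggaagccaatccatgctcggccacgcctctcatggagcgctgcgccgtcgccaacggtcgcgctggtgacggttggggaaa

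At day 3 the calls were spread over complexes I, III and IV. In the mean of the fusions 8 of 76 members passed (18.6% of all features did), with 6 higher (8.67% of all features) and 2 lower (9.91%). Cyc1, cytochrome c1 of complex III, rose by 0.24 ± 0.05 (limma adjusted p = 0.00171), Uqcrfs1 by 0.23 ± 0.05 (0.00204) and Uqcrc1 by 0.19 ± 0.06 (0.0206), so that 3 of 9 complex III subunits rose. Ndufv1 rose by 0.22 (0.0239), the complex I assembly factor Ndufaf5 by 0.25 (0.0346) and the complex IV isoform Cox4i2 by 0.95 ± 0.26 (0.0106). Ndufaf3 fell by 0.31 and Cox6a2 by 1.24. The calls of Uqcrc1, Ndufv1 and Ndufaf5 were lost in 2, 1 and 8 of 33 fits that each left out 1 library. The values of Cyc1 in NUP98-NSD1 cells were 1352, 1423, 1392 and 1371 untreated, 1802, 1769 and 1713 at day 3, and 1447, 1319 and 1554 at day 5. The day 3 libraries were thus above all others, and the day 5 libraries overlapped the untreated ones. In NUP98-JARID1A cells Cyc1 went from 1228, 1116, 1355 and 1227 to 1693, 1425 and 1469 at day 3, again without overlap. In NUP98-DDX10 cells the day 3 change of Cyc1 did not pass the test. Its difference between the fusions did not pass limma's F-test either (adjusted p = 0.333). The count of 8 was 15 without control replicate 3 and 13 without the untreated NUP98-JARID1A library titled day 3.

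Between day 3 and day 5, 7 of 76 members changed in the mean of the fusions, where 27.7% of all features did. Only Cox4i1 rose, by 0.15 (14.3% of all features were higher), and 6 members fell (13.4% were lower); after scaling to total reads none was higher and 17 were lower, and quantile normalization gave none and 10. They were Cox6a2 (-2.47, limma adjusted p = 3.95e-06), Cox6b2 (-0.80, 0.0179), the complex I subunit Ndufa12 (-0.27, 0.0196), the assembly factor Ndufaf4 (-0.29, 0.0356), Cyc1 (-0.16, 0.0322) and the small complex III subunit Uqcr10 (-0.18, 0.0276). The rise of Cox4i1 had an adjusted p of 0.0454 and was lost in 20 of 33 fits that each left out 1 library; Uqcr10, Cyc1 and Ndufaf4 lost theirs in 5, 8 and 11, and Ndufa12 without NUP98-JARID1A day 5 replicate 3 (0.0536). The count of 7 was 12 without control replicate 3, 4 without NUP98-NSD1 day 3 replicate 1 or NUP98-DDX10 day 5 replicate 3, and 3 without NUP98-NSD1 day 5 replicate 2.

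Fusion by fusion, fewer members passed. In NUP98-DDX10 cells 1 of 76 passed at day 3 (Cox6a2, lower; 1.10% of all features passed) and 5 at day 5 (4 higher and 1 lower; 15.1%), in NUP98-JARID1A cells 5 at day 3 (4 higher and 1 lower; 15.7%) and 13 at day 5 (6 higher and 7 lower; 41.3%), and in NUP98-NSD1 cells 2 at day 3 (both higher; 9.14%) and 11 at day 5 (7 higher and 4 lower; 25.4%). After scaling to total reads these splits, in the same order, were 0 and 1, 1 and 1, 0 and 1, 0 and 32, 3 and 0, and 0 and 4 higher and lower. The median changes of the members were 0.13, 0.13, 0.02, -0.05, 0.14 and 0.09, and those of NUP98-JARID1A and NUP98-NSD1 at day 5 were as low as -0.32 and -0.05 in other settings. The count in NUP98-DDX10 at day 5 was 9 without control replicate 3 or NUP98-JARID1A day 5 replicate 1, 2 without its untreated library titled day 3 or its day 5 replicate 2, and 3 without its day 5 replicate 1. The count of NUP98-JARID1A at day 3 was 0 without its day 3 replicate 1 and 3 without its day 3 replicate 2 or its untreated libraries titled day 3 or day 5 replicate 3, and at day 5 it was 21 without its day 5 replicate 1. The counts of NUP98-NSD1 ranged from 0 to 11 at day 3, with 12 of 33 libraries moving the count by over 1.5 times (11 without control replicate 3, 7 without NUP98-JARID1A day 5 replicate 1, 5 without control replicate 1 or its untreated library titled day 5, replicate 1, 4 without its day 5 replicate 1, NUP98-JARID1A day 5 replicate 3 or the untreated NUP98-JARID1A libraries titled day 3 or day 5, replicate 1, 1 without its day 3 replicate 3 or its untreated library titled day 3, and 0 without its day 3 replicate 1 or 2), and at day 5 from 6 without its day 5 replicate 3 to 14; 7 were left without its day 5 replicate 2 or its untreated libraries titled day 5, replicate 2 or 3. The count of NUP98-DDX10 at day 3 was 2 without control replicate 3.

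Few members differed between the fusions in their response. By the F-test of the difference itself, 1 of 76 members differed at day 3, where 7.08% of all features did, and 6 at day 5, where 26.0% did. At day 3 this was Cox6a2, described below. At day 5 Ndufs6, a zinc-binding accessory subunit of complex I, had log2 changes of 0.38, -0.44 and 0.21 in NUP98-DDX10, NUP98-JARID1A and NUP98-NSD1 cells (adjusted p = 0.0243), of which the fall in NUP98-JARID1A passed on its own. Ndufa12 had 0.21, -0.49 and 0.02 (adjusted p = 0.0211), and Ndufaf1 had 0.20, -0.26 and -0.64 (0.0230). Sdhaf2, an assembly factor that attaches FAD to complex II, had -0.17, 0.20 and -0.07 (0.0256), and the core subunit Ndufs8 had -0.20, 0.09 and 0.25 (0.0282). Cox6a2 was the sixth, with an adjusted p of 0.0361 by limma's F-test. Without the 3 untreated libraries titled day 3 neither F-test called any member. The count of 6 was 11 without control replicate 3, 3 without NUP98-DDX10 day 5 replicate 1 or NUP98-JARID1A day 5 replicate 3, 13 without NUP98-JARID1A day 5 replicate 1 and 10 without its untreated library titled day 5, replicate 1. The call at day 3 was lost without any 1 of NUP98-DDX10 day 3 replicates 1 and 3, NUP98-JARID1A day 3 replicate 3, and the untreated libraries NUP98-DDX10 day 5 replicate 1 and NUP98-JARID1A titled day 3, and the count was 5 without control replicate 3.

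Cox6a2, Cox6b2 and Cox4i2, 3 tissue-restricted isoforms of complex IV, differed by more, in their largest difference among the comparisons made here, than any other member did. Cox6a2 (chr7:128205435-128206366, GRCm38) encodes the heart and muscle form of subunit 6a. Its values were 568, 393 and 110 in the controls, 75.6, 83.7, 69.9 and 55.8 in untreated NUP98-DDX10, 11.1, 13.5, 19.8 and 49.3 in untreated NUP98-JARID1A, and 100, 92.9, 93.8 and 168 in untreated NUP98-NSD1 libraries. At day 3 they were 6.71, 12.7 and 6.25 in NUP98-DDX10, 17.9, 9.28 and 51.3 in NUP98-JARID1A, and 51.4, 72.6 and 64.1 in NUP98-NSD1 cells. At day 5 they were 2.20, 1.08 and 2.0, then 0.608, 0 and 0, then 8.61, 41.9 and 29.5. NUP98-DDX10 cells were thus already low at day 3, NUP98-JARID1A cells overlapped their untreated libraries at day 3, and at day 5 every treated library was below every untreated one of its fusion. The fall at day 5 was -3.71 ± 0.31 in the mean (limma adjusted p = 1.65e-10), and -4.72 ± 0.54, -4.15 ± 0.54 and -2.26 ± 0.54 by fusion. From the reads, the untreated level was 40.1-fold that of day 5 in NUP98-DDX10 cells (95% interval 17 to 124, 277 against 5 reads), 83.1-fold in NUP98-JARID1A cells (14.6 to 3315, 96 against 1 read) and 4.19-fold in NUP98-NSD1 cells (3.31 to 5.36), where the intervals cover counting error only. Per kilobase, Cox6a2 was far below the common isoform Cox6a1 in every group: 108 against 9258 normalized counts per kilobase in untreated NUP98-DDX10 cells and 542 against 8215 in the controls.

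Cox6a2 is also transcribed in plasmacytoid dendritic cells. The summed level of 8 genes of those cells (Siglech, Ccr9, Klk1, Pacsin1, Tcf4, Spib, Ly6d and Runx2, chosen after values were seen) was 17856 to 25883 in the controls, 4083 to 7275 in untreated and 2003 to 4204 in treated fusion libraries. In the fusion libraries most of this sum was Tcf4 and Runx2, which other blood cells express too. In NUP98-DDX10 cells Siglech had 123 to 203 untreated and at most 31.2 at day 5. NUP98-JARID1A cells had 38.4 to 300 and at most 18.2, and were already at 22.1 to 25.2 at day 3. The value of 300 was in the untreated library titled day 5, replicate 3, with the highest Cox6a2 value of its group. Ccr9 overlapped between untreated and day 5 libraries in both these fusions, and Spib in NUP98-JARID1A cells. In NUP98-NSD1 cells Siglech, Ccr9 and Spib were not lower at day 5. Siglech had 35.9 to 58.2 untreated and 40.3 to 153 at day 5 there, and Spib 15.9 to 31.6 and 17.2 to 135. Library NUP98-NSD1 day 5 replicate 2, with the highest Cox6a2 value of its group, had Siglech at 153, Ccr9 at 32.4 and Spib at 135, against 40.3 to 61.4, 7.53 to 15.7 and 17.2 to 24.6 in the other 2. In the other untreated fusion groups Cox6a2 and Siglech did not peak together. The untreated NUP98-NSD1 library titled day 5, replicate 3, had the highest Cox6a2 and the lowest Siglech value (35.9) of its group. That of NUP98-DDX10 had the lowest Cox6a2 and the highest Siglech value (203). Of 7 striated muscle genes, Myh7, Myh6 and Mb were at 0 in all libraries and the sum ran from 5.99 to 75.0. Ckm, of the same list, was at 29.0 to 56.8 in NUP98-DDX10 libraries, at 0 in the controls and at most 14.6 in the other fusions. In NUP98-DDX10 cells its day 5 values overlapped the untreated ones. An exon of the gene Itgad on the opposite strand overlaps Cox6a2 by 70 bases, and the sources used here do not say if counting was by strand. The part of these in the fall was not tested.

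Cox6b2, the testis form of subunit 6b, set NUP98-NSD1 cells apart from the other fusions, whose untreated values overlapped each other. All 10 NUP98-NSD1 libraries had values between 0 and 3.56. Untreated NUP98-DDX10 cells had 849, 745, 696 and 783, untreated NUP98-JARID1A cells 1333, 747, 1390 and 916, and the controls 164, 217 and 746. No untreated library of the other fusions overlapped a NUP98-NSD1 library, and the F-test of the untreated levels gave a limma adjusted p of 2.80e-18. The level in untreated NUP98-DDX10 cells was 875-fold that in untreated NUP98-NSD1 cells (95% interval 341 to 3212, 3018 against 4 reads). The controls were 418-fold above untreated NUP98-NSD1 cells (163 to 1537). In NUP98-JARID1A cells Cox6b2 fell to 376, 475 and 544 at day 5 (-1.20 ± 0.41, adjusted p = 0.0185), below all untreated libraries, but the call was lost without day 5 replicate 1 (0.0649) or without the untreated library titled day 3 (0.0514) or day 5, replicate 2 (0.0524). In NUP98-DDX10 cells the day 5 change was -0.48 ± 0.41, which did not pass. The common isoform Cox6b1 ranged from 1502 to 3318 over all libraries, and per kilobase it was 4542 against 1316 for Cox6b2 in untreated NUP98-DDX10 cells and 5699 against 1.52 in untreated NUP98-NSD1 cells. The promoter windows of the pair are shown because the 2 genes encode forms of the same subunit and differ in their level in NUP98-NSD1 libraries; both are on the minus strand, Cox6b1 at chr7:30626065-30626364 and Cox6b2 at chr7:4753045-4753344. Capitals mark the ETS letters (here as their reverse complement), which are in the Cox6b1 window, and none of the 5 motifs is in that of Cox6b2. The windows held 17 and 10 CpG.
Cox6b1: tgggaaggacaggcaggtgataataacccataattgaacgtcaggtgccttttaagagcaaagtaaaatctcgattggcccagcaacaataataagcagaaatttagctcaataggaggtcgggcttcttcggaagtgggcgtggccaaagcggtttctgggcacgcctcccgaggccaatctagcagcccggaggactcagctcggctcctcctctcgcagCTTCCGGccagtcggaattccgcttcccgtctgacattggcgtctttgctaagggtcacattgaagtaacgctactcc
Cox6b2: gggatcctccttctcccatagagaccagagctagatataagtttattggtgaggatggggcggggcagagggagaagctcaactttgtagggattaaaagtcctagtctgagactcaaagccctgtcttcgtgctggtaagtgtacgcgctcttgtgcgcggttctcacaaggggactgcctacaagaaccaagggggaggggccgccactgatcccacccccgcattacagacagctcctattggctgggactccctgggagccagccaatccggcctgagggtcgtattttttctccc

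Cox4i2, the form of subunit 4 known from lung and for its response to low oxygen, was near 0 in the controls (0, 4.57 and 0) and present in every fusion library. Untreated values were 79.6, 60.5, 55.3 and 59.6 in NUP98-DDX10, 29.3, 26.2, 36.5 and 25.2 in NUP98-JARID1A, and 15.4, 18.8, 18.8 and 19.2 in NUP98-NSD1 cells. The 3 untreated groups did not overlap each other. The mean of the untreated fusions was above the control by 4.23 ± 0.38 (limma adjusted p = 1.39e-10), and untreated NUP98-NSD1 cells were 11-fold above the controls (95% interval 4.13 to 41.3, 82 against 4 reads). At day 3 Cox4i2 rose in NUP98-NSD1 cells to 59.7, 61.0 and 53.4 (1.64 ± 0.45, adjusted p = 0.0212), a call lost without any 1 of these 3 libraries (0.0570 to 0.0767) or without the untreated library titled day 3 (0.0519). At day 5 the NUP98-NSD1 values were 61.4, 10.5 and 36.4, which overlapped the untreated ones. Per kilobase Cox4i2 had 87.7 and Cox4i1 8211 normalized counts per kilobase in untreated NUP98-DDX10 cells. Among 10 tested genes known from low oxygen and isoform switching, 1 rose and 1 fell at day 5 in the mean, Ankrd37 (1.12) and Car9 (-1.02). Of all features 22.6% were higher and 23.4% lower in that comparison. Cox4i2 itself did not pass there (0.28, limma adjusted p = 0.399), so this count does not stand beside its calls at day 3 or against the control.

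Cox7a1, the muscle form of subunit 7a, stayed low throughout, between 3.43 and 24.7. It was higher in the untreated fusions than in the controls (1.51 ± 0.26 in the mean, limma adjusted p = 9.97e-06). No change of Cox7a1 with doxycycline passed the test in any fusion.

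**Figure D3:**
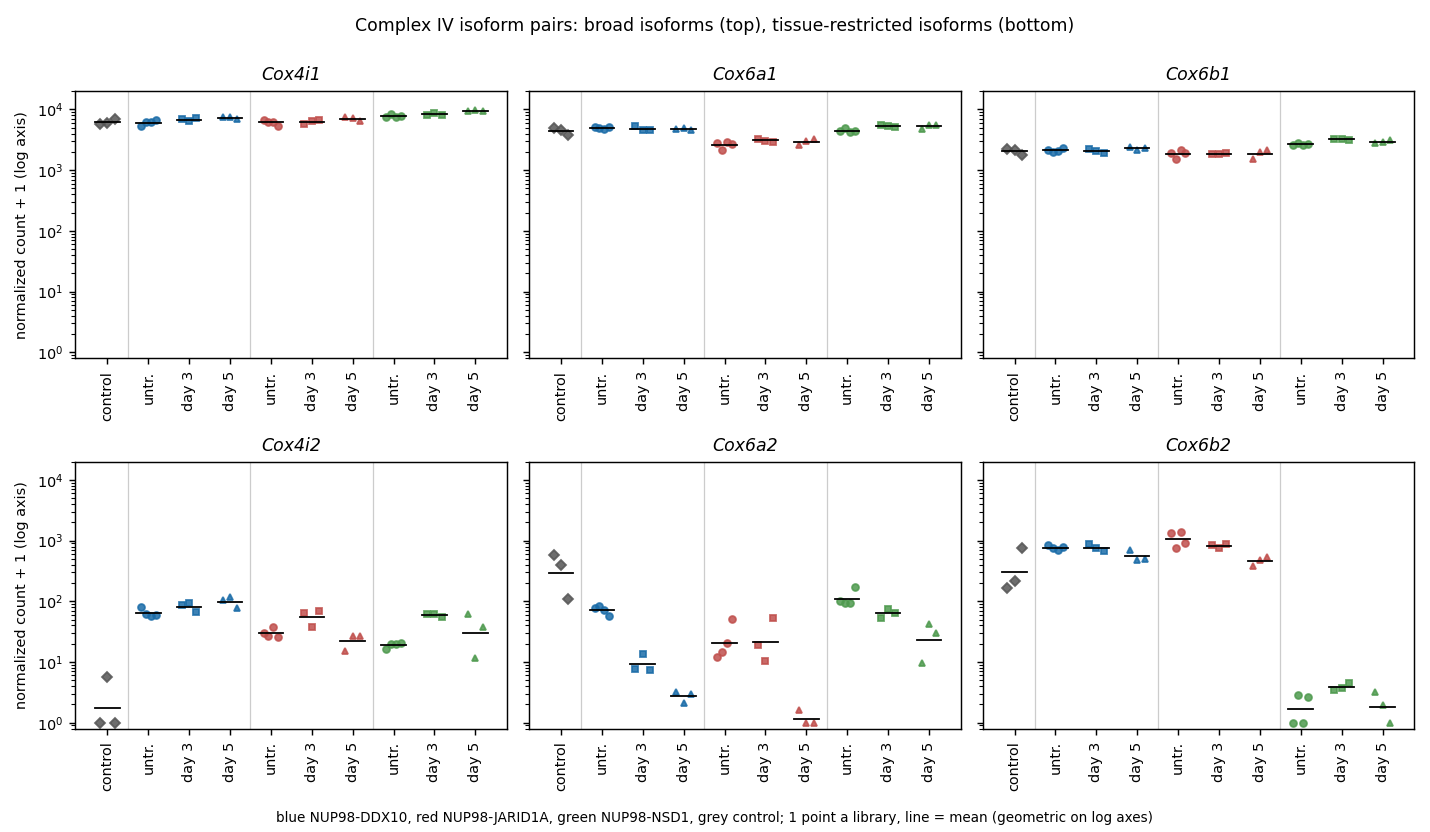
Values of 3 common complex IV isoforms (top row: Cox4i1, Cox6a1, Cox6b1) and their tissue-restricted partners (bottom row: Cox4i2, Cox6a2, Cox6b2) in each library, as normalized counts plus 1 on a log axis, by group. Lines are geometric means. Cox6a2 is lower at day 5 than untreated in all 3 fusions, Cox6b2 is at or near 0 in NUP98-NSD1 libraries and Cox4i2 in the controls.

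Before doxycycline, the fusion cells differed from the controls in most members. In the mean of the untreated fusions 51 of 76 members passed (70.7% of all features did), 35 of them higher (31.8% of all features) and 16 lower (38.9%); after scaling to total reads the split was 44 and 5. The median of the members was 0.14 against -0.09 for all features. Complex III and the complex I core stood higher under every scaling tried: 7 of 9 complex III subunits were higher and 2 lower (none lower after scaling to total reads), and 6 of 7 core subunits of complex I were higher. Complex IV was mixed, with 4 higher and 6 lower of 16, a balance that turned to 7 and 3 after scaling to total reads. These calls in the mean need not hold in each fusion. Cox6b2 was lower in the mean (-1.44) but higher in NUP98-JARID1A cells (1.83, limma adjusted p = 0.000266). Cox7a2 was lower in the mean (-0.63) and, by single fusion, passed only in NUP98-JARID1A cells (-1.81).

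In complex II the 2 membrane anchor subunits were the higher ones. Sdhc was 1751, 1688 and 1704 in the controls and between 2701 and 3549 in the 12 untreated fusion libraries (0.90 ± 0.06, limma adjusted p = 3.38e-13), and Sdhd was 1252, 1184 and 1019 against 1649 to 2476 (0.82 ± 0.07, 4.67e-11). Neither overlapped the controls. Sdha, the flavoprotein subunit, was lower by 0.26 (0.0326), with a sign that changed to 0.03 after scaling to total reads. That call was also lost by edgeR (-0.16, adjusted p = 0.188), after quantile normalization (0.282), and without control replicate 1 (0.200) or 2 (0.0642). Sdhb had -0.20, which did not pass. Sdhaf2 was lower by 0.37 (9.96e-06).

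In complex III, Cyc1 was 764, 806 and 810 in the controls and 1116 to 1823 in the untreated fusions (0.84 ± 0.08, limma adjusted p = 2.36e-10). Uqcr10 was higher by 0.72 (2.30e-08) and Uqcrc1 by 0.71 (2.99e-08). In complex I, Ndufb8, a membrane arm subunit, was 958, 997 and 1219 against 1775 to 2575 (1.01 ± 0.09, 1.32e-10), and the core subunit Ndufv1 was higher by 0.70. Among the assembly factors Ndufaf3 and Ndufaf5 were both higher by 0.66, so in the mean of the fusions Ndufaf3 was higher untreated and fell with doxycycline. These comparisons share the untreated libraries. In NUP98-JARID1A cells alone neither gene passed against the control (0.28 and 0.31, limma adjusted p = 0.0884 and 0.0608). The day 5 values of Ndufaf3 overlapped the untreated ones there.

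Each fusion on its own gave a different balance against the same controls. In NUP98-DDX10 cells 43 members passed (68.5% of all features), 34 higher and 9 lower, in NUP98-JARID1A cells 53 (69.4%), 23 higher and 30 lower, and in NUP98-NSD1 cells 50 (64.6%), 43 higher and 7 lower. After scaling to total reads the balance in NUP98-JARID1A cells turned to 29 higher and 19 lower, and in the other 2 fusions it stayed on the higher side, at 44 and 4 and at 57 and 1. The median changes were 0.24, -0.05 and 0.40. By the F-test of the untreated level, 68 of 76 members differed between the fusions, where 69.8% of all features did. The 8 that did not pass, named as the rest of a count, were Ndufab1, Ndufaf8, Ndufb10, Ndufb7, Ndufs1, Ndufv3, Sdhaf1 and Sdhaf3.

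**Figure D4:**
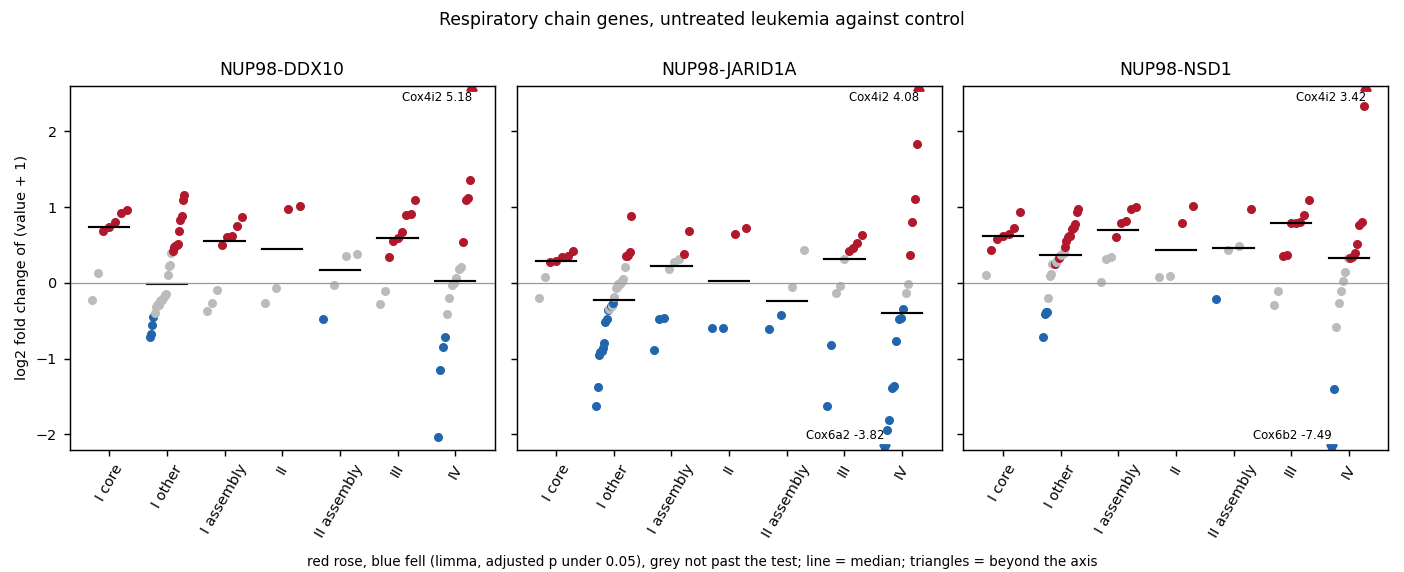
Difference of each member between untreated fusion cells and the controls, in log2 units on the vertical axis, by complex and role, with 1 panel per fusion. Red points were higher, blue points lower and grey points did not pass the test, and lines are medians. Beyond the axis lie Cox4i2 (5.18, 4.08 and 3.42), Cox6a2 in NUP98-JARID1A (-3.82) and Cox6b2 in NUP98-NSD1 (-7.49).

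Cell markers moved with this comparison as well. The summed level of 8 neutrophil genes was 270343 to 3115733 in the controls and 42286 to 240288 in untreated fusion cells, that of 6 myeloid progenitor genes 6651 to 44235 and 68348 to 131308, and that of 7 T and NK cell genes 1967 to 4190 and 11.6 to 947. Of 9 erythroid genes, whose sum was 5910 to 66462 in the controls and 7.77 to 72.7 in untreated fusion cells, the globin genes Hba-a1, Hba-a2 and Hbb-bt were at 0 in every library. Cell makeup and fusion cannot be told apart in this comparison.

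Some subunits were far lower in NUP98-JARID1A cells than in the other groups. Others, such as Cox5a (0.80) and Ndufb8 (0.89), were higher there than in the controls, as they were in the mean of the untreated fusions (0.71 and 1.01). Cox7a2, the common form of subunit 7a, was 3278, 3071 and 1507 in the controls, 1492, 1855, 2341 and 1851 in untreated NUP98-DDX10 and 3399, 3141, 2933 and 2973 in untreated NUP98-NSD1 cells, but 1376, 635, 569 and 494 in untreated NUP98-JARID1A cells. Every untreated NUP98-JARID1A library was below every library of the other groups just named. The difference from the control was -1.81 ± 0.32 (limma adjusted p = 1.39e-05), and -0.41 and 0.33 in the other 2 fusions, neither of which passed; the F-test between the fusions gave 2.10e-06. Cox7b was lower by 1.36 in NUP98-JARID1A cells (3.47e-05) and Ndufb5, a membrane arm subunit of complex I, by 0.51 (0.00558), where NUP98-DDX10 and NUP98-NSD1 cells were higher by 0.69 and 0.62. Further members with large deficits, chosen after their values were seen, were Cox6c (-1.94), Ndufa5 (-1.63), Uqcrb (-1.62, with copies) and Ndufa6 (-1.37). With doxycycline Cox7a2 was 418, 691 and 883 at day 3 and 1288, 553 and 399 at day 5, still below all libraries of the other groups.

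Other genes of similar transcript length were lower only in part. Among transcripts of 501 to 800 bases, the median difference of untreated NUP98-JARID1A cells from the control was -0.27 for 318 other genes and -0.35 for 28 members, against 0.11 and 0.08 in NUP98-DDX10 and 0.21 and 0.31 in NUP98-NSD1 cells. Cox7a2 (754 bases) lies in this range, but Cox7b (1001 bases) and Ndufb5 (999 bases) do not: from 801 to 1500 bases the medians in NUP98-JARID1A cells were -0.03 for 1456 other genes and -0.13 for 19 members, and up to 500 bases they were 0.01 for 88 and -0.13 for 11. The untreated library titled day 3 had the highest Cox7a2 value of its group, and so had replicate 1 at day 5, the most deeply sequenced library of all (28903870 reads). The part of transcript length in these differences was not tested.

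**Figure D5:**
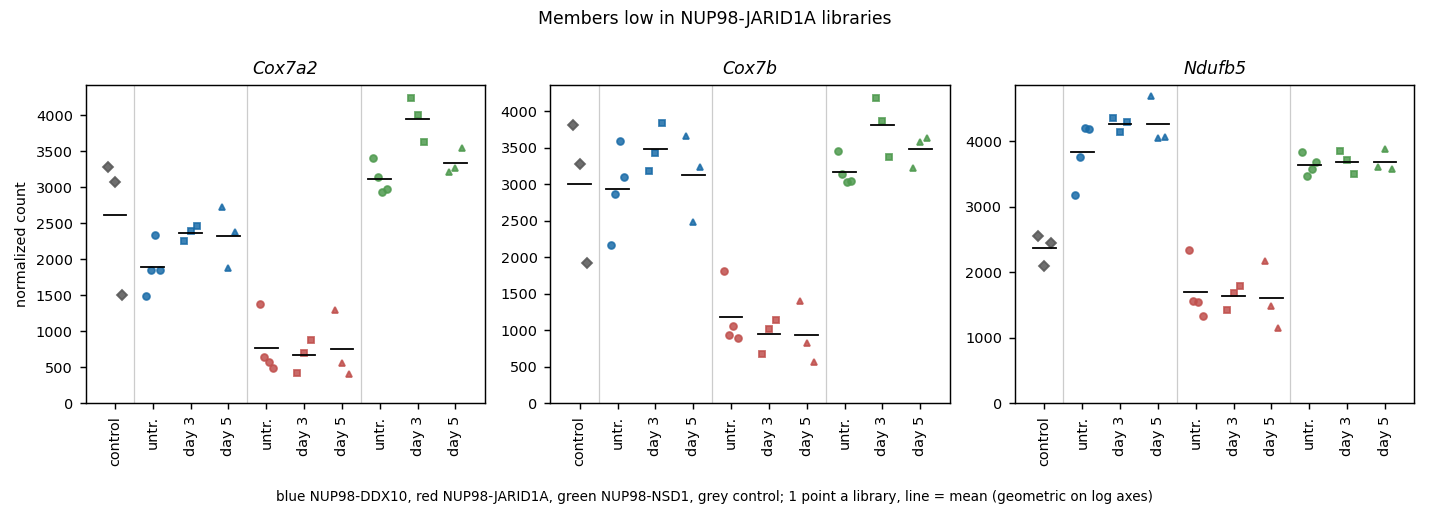
Normalized counts of Cox7a2, Cox7b and Ndufb5 per library in the 10 groups. Points are libraries and lines are group means. The NUP98-JARID1A libraries lie below all others for Cox7a2 (399 to 1376) and Cox7b (570 to 1813), and for Ndufb5 their range of 1146 to 2335 overlaps that of the controls.

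The other genes of the pathway were counted over lists that hold no member. In the mean of the fusions at day 5, 4 of 6 complex III assembly genes fell and none rose under each of the 5 scalings and tools compared. They were Bcs1l (-0.42, limma adjusted p = 3.63e-06), which inserts the Rieske protein, Uqcc1 (-0.34) and Uqcc2 (-0.18), which act in the synthesis of cytochrome b, and Lyrm7 (-0.69), a chaperone of the Rieske protein. Of 22 complex IV assembly genes 5 fell and none rose (9 fell after scaling to total reads), with Cox10 (-0.33) and Cox15 (-0.20) of heme A synthesis among them, and of 10 other complex I assembly genes 3 fell, led by Tmem186 (-0.47). Of 21 ATP synthase genes 4 rose and 2 fell, and after scaling to total reads 1 rose and 3 fell. Of 17 TCA cycle genes 4 rose and 3 fell (0 and 6 after scaling to total reads), among which the mitochondrial isocitrate dehydrogenase Idh2 fell by 0.45. Of 77 mitochondrial ribosome genes 7 rose and 16 fell (1 and 30), and of 15 cytochrome c and coenzyme Q genes 2 rose and 4 fell, with Coq4 at -0.58. Of 16 regulators of mitochondrial biogenesis 1 rose (Nrf1, 0.22) and 5 fell, among them Myc (-1.04), Pprc1 (-0.75) and the ribosomal RNA methyltransferase gene Tfb1m (-0.62). Uqcc2 and Nrf1 were named after their values were seen. All these counts stand beside the 22.6% of features that were higher and the 23.4% that were lower in the same comparison.

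Against the controls, 12 of 17 TCA cycle genes were higher in the untreated fusions and none lower under each scaling, with medians of 0.53 to 0.82, led by Idh2 (1.77, limma adjusted p = 5.00e-16). Of 77 mitochondrial ribosome genes 53 were higher and 6 lower, and of 22 complex IV assembly genes 11 were higher and 5 lower, beside 31.8% of all features higher and 38.9% lower in this comparison. The respiratory chain genes of mitochondrial DNA were not analysed here.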

How the data were processed

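RNA of 33 sorted bone marrow samples was analysed; 2 ChIP samples were not analysed here. Per the submitters' processing notes the authors used FastQC, STAR, SAMtools, featureCounts and DESeq2 with GRCm38 (mm10); versions, settings and the use of strand in counting are not given in the sources used here. The deposited values are a signal, namely normalized counts. Every value was a whole number of reads times 1 factor per library (100% of values within 0.01), so reads were recovered for the count tests and for depth. Symbols, positions and promoter sequences came from RefSeq (GRCm38.p6), and 24376 of 24454 Entrez identifiers had a symbol.

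The test was limma 3.58.1 (R 4.3.3) on log2(value + 1), with 10 group means over all 33 libraries, a variance trend and Benjamini-Hochberg adjustment over the 12687 features that 3 or more libraries had at 10 or higher; a call is an adjusted p under 0.05. F-tests compared the fusions. Fold changes on this scale understate those of low genes. edgeR 4.0.16 and DESeq2 1.42.0 on recovered reads, scaling to total reads (chosen after seeing the data), quantile normalization, other pseudocounts and filters, and leaving out libraries were alternatives, and the procedure was tested on simulated data. Named genes were, in each role group, up to 3 members with the smallest adjusted p at day 5, 2 at day 3 and 2 against the control (means of the fusions), members called against the main direction at day 5, the 10 and 5 members with the smallest F-test p at day 5 and untreated, the complex IV isoform sets, the members that missed the filter, and up to 3 genes of each pathway list; exceptions are stated, and the values of 1 member are not reported here. Members and lists were chosen with earlier results of these data known.

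Title numbers did not pair the samples: deviations of same-numbered libraries correlated with a median of -0.02 over 33 pairs, of which 6 were over 0.1.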

Additional observations from a re-analysis of the deposited data

Results flagged for a closer look

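Among 141 groups of 4 untreated libraries (47 named members in 3 fusions), 12 had 1 library far from the other 3 (Dixon's test for 4 values), where chance gives about 1 in 20. The untreated NUP98-JARID1A library titled day 3 was the high one for 6 members: Cox7a2 at 1376 (others 494 to 635), Cox7b at 1813 (900 to 1054), Ndufa4 at 4498 (3107 to 3333), Sdha at 1660 (1224 to 1241), Sdhaf3 at 84.9 (47.0 to 49.3) and Sdhaf4 at 422 (283 to 287). In NUP98-NSD1 cells the untreated library titled day 3 was low for Cox4i2 at 15.4 (18.8 to 19.2) and Ndufb2 at 630 (678 to 687). The untreated NUP98-NSD1 library titled day 5, replicate 1, was high for Cox8a at 4504 (3360 to 3415) and Uqcr10 at 2420 (2020 to 2079), and replicate 3 was high for Cox6a2 at 168 (92.9 to 100). In NUP98-DDX10 cells the untreated library titled day 3 was low for Sdhaf2 at 1142 (1192 to 1201).

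The response to doxycycline differed between the fusions by limma's F-test for Cox6a2 at day 3 (adjusted p = 0.0283). At day 5 it differed for Ndufa12 (adjusted p = 0.0211), Ndufaf1 (0.0230), Ndufs6 (0.0243), Sdhaf2 (0.0256), Ndufs8 (0.0282) and Cox6a2 (0.0361). Without the 3 untreated libraries titled day 3, 0 members passed either F-test.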

How the results depend on the processing

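Counts of members past the test that moved by over 1.5 times are given here, with the main count first; the cause was not tested. After scaling to total reads they were 5 to 2 in NUP98-DDX10 at day 5, 5 to 1 and 13 to 32 in NUP98-JARID1A at day 3 and day 5, 11 to 4 in NUP98-NSD1 at day 5, 7 to 17 between the days, and 1 to 3 and 6 to 17 by the F-tests at day 3 and day 5. Quantile normalization gave 2 to 5 and 11 to 5 in NUP98-NSD1, 16 to 9 in the mean at day 5 and 1 to 0 by the F-test at day 3. In NUP98-NSD1, edgeR gave 11 to 7 at day 5, and DESeq2 gave 2 to 6 and a filter of 50 gave 2 to 4 at day 3. DESeq2 gave 8 to 14 in the mean at day 3. Without the controls the counts were 1 to 2 and 5 to 8 in NUP98-DDX10, 2 to 10 in NUP98-NSD1 at day 3, 8 to 15 in the mean at day 3, 7 to 12 between the days, and 1 to 4 and 6 to 10 by the F-tests. Without the untreated libraries titled day 3 they were 5 to 2 in NUP98-DDX10 at day 5, 5 to 2 in NUP98-JARID1A at day 3, 11 to 7 in NUP98-NSD1 at day 5, and 1 to 0 and 6 to 0 by the F-tests. With only that fusion's libraries they were 1 to 2 and 5 to 17 in NUP98-DDX10 (31.5% of all features at day 5), 5 to 1 and 13 to 5 in NUP98-JARID1A, and 2 to 29 and 11 to 27 in NUP98-NSD1 (22.8% and 39.2%).

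With the title number as a replicate block, counts were 1 and 4 in NUP98-DDX10, 1 and 10 in NUP98-JARID1A, 2 and 8 in NUP98-NSD1 at day 3 and day 5, 7 and 12 in the mean, 5 between the days, and 1 and 1 by the F-tests. Leaving out 1 library gave 1 to 2 and 2 to 9 in NUP98-DDX10, 0 to 6 and 9 to 21 in NUP98-JARID1A, 0 to 11 and 6 to 14 in NUP98-NSD1, 6 to 15 and 12 to 23 in the mean, 3 to 12 between the days, 39 to 49, 45 to 57, 44 to 53 and 43 to 55 against the control, and 0 to 5, 3 to 13 and 63 to 70 by the F-tests.

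Among the calls of members named here, signs changed only after scaling to total reads: Sdhaf2 (-0.08) and Uqcrc1 (-0.03) in NUP98-JARID1A at day 5, and against the control Sdhaf2 in NUP98-NSD1 (0.10) and Sdha in the mean (0.03). DESeq2 gave no F-tests, which were not run.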
